A study of Mus musculus with 4 samples.

Results

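The TNF and TWEAK ligands and receptors are 5 of the 31053 genes counted in single cells of the mouse brain vasculature, and they were picked by symbol: Tnf and Tnfsf12 encode the ligands TNF and TWEAK, Tnfrsf1a and Tnfrsf1b the TNF receptors TNFR1 and TNFR2, and Tnfrsf12a the TWEAK receptor Fn14. The study enriched brain vascular-associated cells (BVACs) from adult male wild-type C57BL/6 mice with microbeads carrying an antibody to CD31, an endothelial surface protein, and dissociated them mechanically and with collagenase II for droplet RNA sequencing from the 3′ end. Chronic social defeat (CSD) mice lived for 14 days in the cage of an aggressive CD-1 male behind a perforated partition. It was lifted briefly each day for an encounter. Home cage (HC) mice were each paired with a CD-1 mouse too, for the same time, across a partition that was never removed. Each condition had 2 libraries and each library pooled 4 mice, so the library, not the cell or the mouse, was the replicate, and a difference between mice of a pool could not be seen. The files held counts of unique molecular identifiers (UMIs, each standing for 1 captured RNA molecule). Levels of the members were compared across cell classes and between CSD and HC to see which BVACs carried the ligand, which the receptor, and whether social defeat altered either.

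TNF is made by activated myeloid cells and lymphocytes as a membrane protein that can be shed. TNFR1 is found on most cells and carries a death domain, whereas TNFR2 is largely kept to immune and endothelial cells and binds best to membrane TNF, and both feed NF-kappaB, which in endothelium turns on adhesion molecules and chemokines. TWEAK is made by many cell types, while Fn14 is low in resting tissue and is known as an injury-induced and growth-factor-induced receptor that also feeds NF-kappaB.

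On mouse build GRCm38, each member has more than 1 annotated transcript, and exon counts are those of the longest. Tnf (ENSMUSG00000024401) lies on chromosome 17 at 35199381 to 35202007, minus strand, with 4 exons, and Tnfrsf12a (ENSMUSG00000023905) on the same chromosome at 23675445 to 23677468, minus strand, also with 4 exons. Tnfsf12 (ENSMUSG00000097328) lies on chromosome 11 at 69686250 to 69695849, minus strand, with 7 exons. It overlaps Tnfsfm13, a coding gene on the same strand that was given 63 UMIs over all cells, and the antisense gene Tnfsf13os, given 26 UMIs, so reads of the former and of Tnfsf12 could not be told apart where they share exons. Tnfrsf1a (ENSMUSG00000030341) lies on chromosome 6 at 125349362 to 125362484, plus strand, and Tnfrsf1b (ENSMUSG00000028599) on chromosome 4 at 145213463 to 145246870, minus strand, with 10 exons each.

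The upstream sequences of Tnf and Tnfrsf12a are shown because these were the most class-restricted member and the member that differed between CSD and HC. They are RefSeq's for build GRCm38.p6, read 5′ to 3′ on the minus strand up to the base before the annotated start, at chr17:35202008-35202257 for Tnf and chr17:23677469-23677699 for Tnfrsf12a, for which RefSeq and the gene model used here start at different bases. Capitals mark a TATA box (TATAAA) and GC boxes (GGGCGG on either strand, read as CCGCCC on the opposite one).
Tnf: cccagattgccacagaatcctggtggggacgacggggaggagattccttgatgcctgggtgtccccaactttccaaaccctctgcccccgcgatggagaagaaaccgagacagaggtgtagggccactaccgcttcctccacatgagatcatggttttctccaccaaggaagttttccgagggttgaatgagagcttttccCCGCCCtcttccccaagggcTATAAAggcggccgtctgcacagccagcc
Tnfrsf12a: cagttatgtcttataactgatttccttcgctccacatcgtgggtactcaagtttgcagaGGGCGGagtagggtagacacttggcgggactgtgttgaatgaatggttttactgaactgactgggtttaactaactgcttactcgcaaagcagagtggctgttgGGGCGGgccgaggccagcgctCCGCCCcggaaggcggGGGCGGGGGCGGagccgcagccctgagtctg
The Tnf sequence held 1 TATA box, 29 bases before the start, and 1 GC box on the opposite strand, while the Tnfrsf12a sequence held 5 GC boxes and no TATAAA. Of 32851 mouse promoters, 12.4% held TATAAA and 32.7% GGGCGG on either strand of the 250 bases before the start. A loose NF-kappaB pattern (GGG and CC with any 5 bases between) occurred in all 4 members with a listed promoter (Tnf, Tnfrsf1a, Tnfrsf1b and Tnfrsf12a) and in 45.8% of all promoters, so its presence did not set the members apart. The AP-1 pattern TGANTCA occurred in 0 of the 4 and in 6.75% of all promoters. These are matches of letters within the window and carry no measure of binding.

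After filtering, 14415 cells remained, 2553 to 4934 per library with a median of 1408 to 2357 UMIs per cell, from library totals of 27297599 to 30361474 UMIs. Cells were assigned to classes by markers that did not include the members: 4982 endothelial cells (EC), 4562 microglia, 1720 choroid plexus cells, 490 pericytes, 490 arterial smooth muscle cells (SMC), 400 astrocytes, 208 ependymal cells, 122 T cells and 84 fibroblasts held at least 10 cells in every library and were tested. Of their own markers, fibroblasts and ependymal cells had 2 among the 10 genes that led them and the other classes 5 to 7, while capillary EC were led, against other EC, by haemoglobin genes. The CSD 2 library stood apart, with 32.6% of its UMIs in cells against 51.8 to 56.8% in the others and with the fewest choroid plexus cells (90, against 369 to 851). No more than 9 cell barcodes were shared by any pair of libraries. Near-empty droplets (100 UMIs or fewer), a measure of RNA outside cells, carried the members too. They held Tnf at 14.8 to 39.96 CPM (a gene's UMIs scaled to the same fixed total in every class and library). Tnfrsf12a stood there at 22.8 to 56.1 CPM. How much of a cell's UMIs came from free RNA was not measured. A class level at or below these values was therefore not told apart from background by level alone. Reads from 3′ ends were compared for the same gene between classes and not between genes.

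Across cell classes, the members differed in which cells carried them. Of 5124 Tnf UMIs in all cells, 93.9% were in microglia, whereas Tnfsf12 was spread over EC (40.1% of 1781 UMIs) and microglia (23.6%). Microglia held 76.9% of the 778 Tnfrsf1b UMIs and 44.0% of the 2677 Tnfrsf1a UMIs. Tnfrsf12a was divided among choroid plexus cells (36.3% of 3407 UMIs), microglia (27.1%) and EC (23.9%). These shares also depend on how many cells a class held and how deep they were. Choroid plexus cells had a median of 13530.5 UMIs, against 2083.5 in microglia and 1098.5 in EC. By level, Tnfrsf12a averaged 45.1 CPM in choroid plexus cells, under microglia (82.6 CPM) and EC (97.0 CPM). With a block for library in edgeR's quasi-likelihood test, 104 of 180 comparisons of a member between a pair of the 9 classes passed an adjusted p of 0.05, where 16 to 78.6% of all 9143 genes passed depending on the pair. By member, 15 of 36 pairs passed for Tnf, 26 for Tnfsf12, 27 for Tnfrsf1a, 20 for Tnfrsf1b and 16 for Tnfrsf12a.

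**Figure D1:**
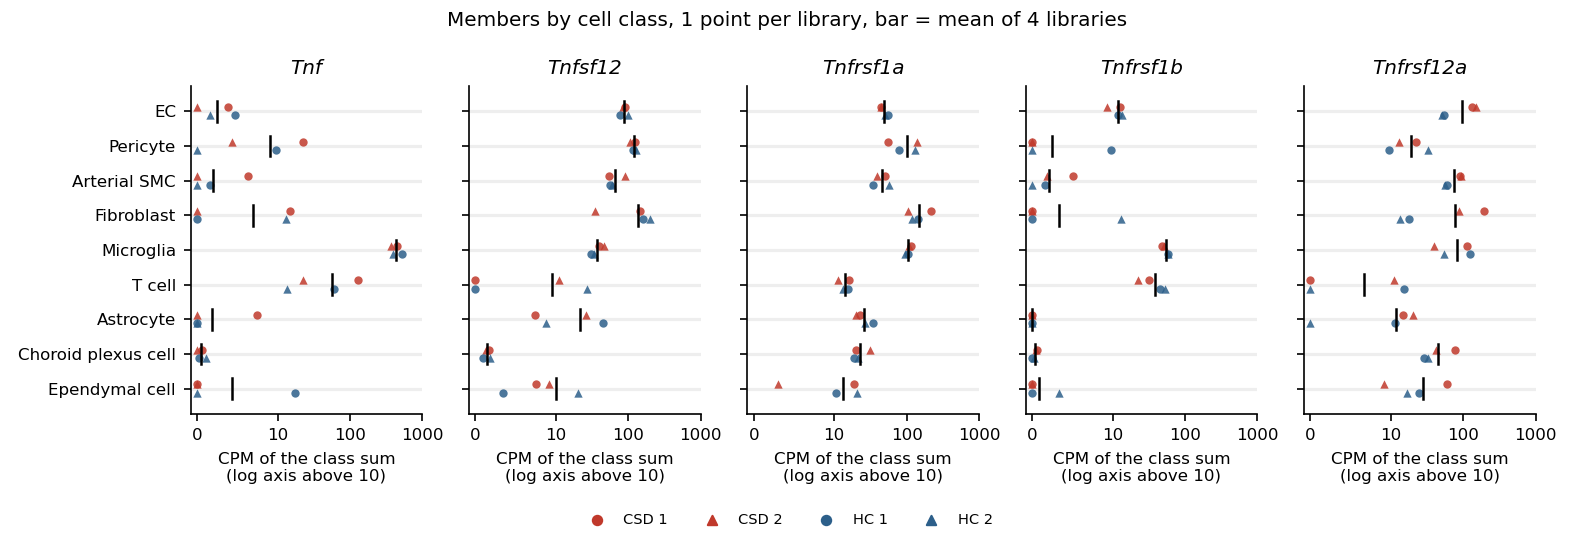
Level of each member (CPM of the summed counts of a class in a library, logarithmic above 10) in the 9 classes, 1 point per library and a bar at the mean of 4 libraries. Tnf stood at 370 to 521 CPM in microglia and at 0 to 4.68 CPM in EC, while Tnfrsf12a in EC separated into CSD libraries at 132 and 151 CPM and HC libraries at 51.2 and 53.6 CPM.

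Tnf, the ligand with the sharpest distribution, was at 453 and 370 CPM in the microglia of CSD 1 and CSD 2 and at 521 and 391 CPM in those of HC 1 and HC 2, a mean of 434 ± 67.8 (SD, n = 4 libraries). Of the 9 tested classes T cells were next, at 129, 22.3, 61.2 and 13.3 CPM in the same order, resting on 8, 2, 4 and 1 UMIs, and only the CSD 1 and HC 1 values lay above the free RNA of every library. Microglia exceeded T cells by 3.42 on the log2 scale (SE 0.39, adjusted p = 2.57e-10), in a comparison in which 34% of all genes passed. EC held 8, 0, 9 and 3 Tnf UMIs, or 3.86, 0, 4.68 and 1.55 CPM, where the 0 in CSD 2 allows up to 1.33 CPM at 3 UMIs. All were under the free RNA of their own library, so Tnf in EC was not told apart from background at this depth. EC lay 7.77 below microglia on the log2 scale (SE 0.30, adjusted p = 4.55e-28, 63.6% of all genes passing for this pair). Border-associated macrophages, with only 5 cells in CSD 2 and therefore not tested, stood at 396, 329, 335 and 243 CPM from 34, 6, 40 and 6 UMIs, and 33 neutrophils or monocytes, also not tested, held 5 Tnf UMIs in all. The paper cautions that enzymatic digestion may change transcripts before sequencing, and the part of dissociation in these Tnf levels was not tested.

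Within microglia, the level of Tnf varied from cluster to cluster even though the members were kept out of the clustering. It was highest in cluster 5 at 766, 462, 758 and 621 CPM in CSD 1, CSD 2, HC 1 and HC 2, a cluster of 1194 cells led by Il1a, encoding the cytokine interleukin-1 alpha, and by Gpr84, Tnfaip3 and Cd83. The 4 other clusters with Tnf in every library ranged from 139 to 490 CPM. Cluster 16, of 459 cells led by the haemoglobin genes Hbb-bt and Hbb-bs, held 2 Tnf UMIs in CSD 1 and none in the other libraries. No cluster had both CSD libraries on one side of both HC libraries apart from cluster 15, where CSD 1 and CSD 2 (279 and 310 CPM) lay below HC 1 and HC 2 (424 and 369 CPM). The HC 1 value there rested on 26 cells and 39 UMIs. Over all microglia, 12.1% of the genes tested had both CSD libraries below both HC libraries. Cell by cell, microglia with at least 1000 UMIs were thinned to that number, which left out 200, 110, 165 and 148 shallower cells in CSD 1, CSD 2, HC 1 and HC 2, and 23.4 to 34.6% of the remaining cells per library kept a Tnf UMI. Those cells had Cxcl10 at a mean of 311 CPM against 148 CPM in the cells without, Gpr84 at 329 against 197 CPM, Ccl4 at 3750 against 2753 CPM and Nfkbia, the NF-kappaB inhibitor and feedback gene, at 3456 against 2533 CPM. These 4 genes were named after their values were seen and are given as a description. In the same split Tnfrsf1a was at 98.6 against 106 CPM, Tnfrsf1b at 57.2 against 53.4 CPM and Tnfrsf12a at 84.2 against 88.3 CPM, and each receptor was higher in some libraries and lower in others.

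**Figure D2:**
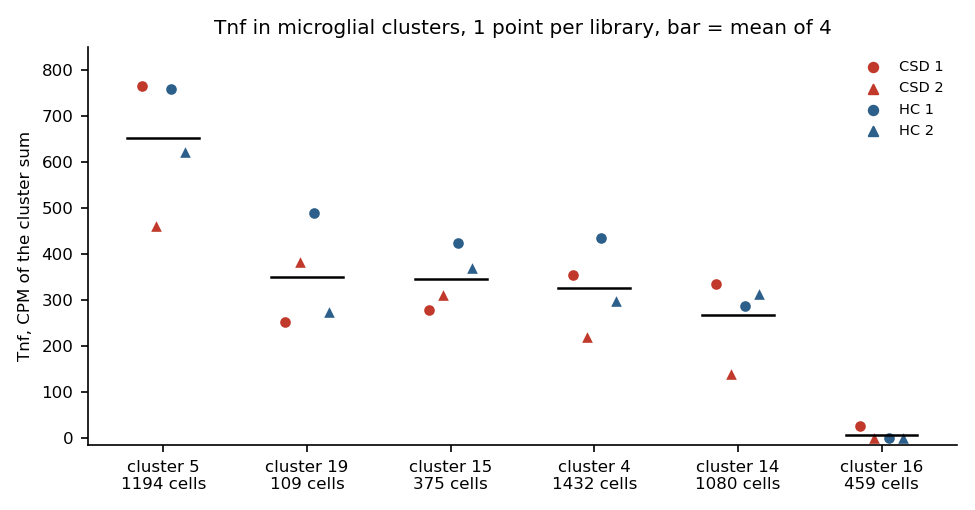
Tnf in the 6 microglial clusters (CPM of the cluster sum), 1 point per library and a bar at the mean of 4 libraries, clusters ordered by mean with their cell number beneath. Cluster 5 is highest on average, at 462 to 766 CPM, and cluster 16 lies at 0 in 3 libraries and at 26.6 CPM in CSD 1.

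Of the 9 tested classes, Tnfsf12, the TWEAK gene, was highest in cells of the vessel wall and its stroma. It was at 136 ± 70.6 CPM in fibroblasts, 119 ± 9.23 CPM in pericytes, 87.4 ± 9.38 CPM in EC and 65.5 ± 16.9 CPM in arterial SMC (SD, n = 4 libraries), and no neighbours in this order differed (adjusted p = 0.39 to 0.76). In EC the libraries were close together, at 89.8 and 84.5 CPM in CSD and 76.5 and 98.9 CPM in HC. Border-associated macrophages, too few to test, averaged 87.2 CPM from 23 UMIs. Arterial SMC exceeded microglia (37.4 ± 6.95 CPM) by 0.67 on the log2 scale (SE 0.20, adjusted p = 0.0029, 61.4% of all genes passing), and EC exceeded microglia by 0.86 (SE 0.16, adjusted p = 5.16e-06). Choroid plexus cells were last at 1.45 ± 0.40 CPM, and EC exceeded them by 4.98 on the log2 scale (SE 0.22, adjusted p = 1.75e-25, 77% of all genes passing).

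Tnfrsf1a, the gene of the death-domain receptor TNFR1, was broadly present. Of the 9 tested classes, fibroblasts (147 ± 51.6 CPM), microglia (105 ± 7.96 CPM) and pericytes (101 ± 40.6 CPM) led and their neighbours in the order did not differ (adjusted p = 0.96 and 0.15). Pericytes exceeded EC (48.8 ± 5.81 CPM) by 1.08 on the log2 scale (SE 0.24, adjusted p = 2.98e-04, 31.7% of all genes passing), and EC and arterial SMC (45.5 ± 10.9 CPM) did not differ (adjusted p = 0.67). Pericytes ranged widely, from 55.8 CPM in CSD 1 to 141 CPM in CSD 2, on 5 to 33 UMIs per library. Among classes too small to test, neutrophils or monocytes averaged 184 CPM from 24 UMIs and border-associated macrophages 129 CPM from 28 UMIs. Astrocytes, choroid plexus cells, T cells and ependymal cells lay between 13.2 and 25.7 CPM on average, near or under the free RNA (18.5 to 25.7 CPM). The choroid plexus value rested on 576 UMIs, and the part of free RNA in these levels was not tested.

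Of the 9 tested classes, Tnfrsf1b, the gene of TNFR2, was highest in microglia and T cells. Microglia stood at 54.4 ± 5.66 CPM, with every library between 47.6 and 59.3 CPM, and T cells at 38.5 ± 13.9 CPM from 2 to 4 UMIs per library, a difference that did not pass (log2 0.87, SE 0.44, adjusted p = 0.13). T cells exceeded EC by 1.68 on the log2 scale (SE 0.57, adjusted p = 0.0175, 35.1% of all genes passing), and EC lay 2.55 below microglia (SE 0.20, adjusted p = 1.86e-15). EC held 12.5 and 9.34 CPM in CSD and 11.97 and 13.5 CPM in HC, above the free RNA of 3.36 to 4.85 CPM. Astrocytes held 0 UMIs in all 4 libraries.

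Tnfrsf12a, the gene of the TWEAK receptor Fn14, differed between the libraries of several classes. EC were at 132 and 151 CPM in CSD and 53.6 and 51.2 CPM in HC, a mean over all 4 libraries of 97.0 ± 52.0 CPM. Microglia were at 112 CPM in CSD 1 and 125 CPM in HC 1 but at 39.1 CPM in CSD 2 and 54.4 CPM in HC 2, so that there the libraries parted by number and not by condition. Microglia of CSD 2 were also the deepest, with a median of 4838 UMIs per cell against 1866 to 2673 in the other libraries, and the part of depth in this order was not tested. EC, microglia, fibroblasts, arterial SMC and choroid plexus cells followed each other with no difference between neighbours (adjusted p = 0.39 to 0.77), and choroid plexus cells (45.1 ± 22.4 CPM) exceeded ependymal cells (27.7 ± 22.6 CPM) by 1.5 on the log2 scale (SE 0.40, adjusted p = 0.00104, 56.7% of all genes passing). The scaling in this fit raised choroid plexus levels relative to the CPM, which bears on the order around them. EC exceeded pericytes by 2.32 on the log2 scale (SE 0.56, adjusted p = 8.44e-04) and astrocytes by 2.63 (SE 0.59, adjusted p = 2.16e-04). Pericytes (19.3 ± 10.1 CPM), astrocytes (11.6 ± 8.54 CPM) and T cells (6.61 ± 7.82 CPM) were on average under the free RNA of 22.8 to 56.1 CPM. Ependymal cells lay within its range, and under their own library's free RNA in 3 of 4 libraries. Choroid plexus cells lay above their own library's free RNA, by little in HC (28.4 and 32.4 CPM against 27.0 and 26.4 CPM), on 1237 UMIs in all. Tnfsf12 in choroid plexus cells was at 1.45 CPM, under its free RNA of 11.9 to 21.1 CPM. How much of the Tnfrsf12a level came from free RNA in choroid plexus or ependymal cells was not tested.

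The genes whose pattern over the 36 sums of a library and class was most like a member's, by Pearson's r of log2(CPM + 10) among 9682 genes, differed by member. They were Cd86 (r = 0.961), Susd3 and Pde3b for Tnf, and Klk8 (r = 0.944), Ncf4 and Lcp1 for Tnfrsf1b. For Tnfsf12 they were Pttg1ip (r = 0.880), Arhgap29 and Tmem204, and for Tnfrsf12a the weaker matches Rab11a (r = 0.727), Fam71a and Adamts1. The sums share libraries and classes, so these values are descriptions only.

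Between CSD and HC, Tnfrsf12a rose in EC, and no other member passed in any class. Of 45 combinations of a member and class, 18 had enough counts to be tested, and T cells, astrocytes and ependymal cells had none. In edgeR's quasi-likelihood test 1 of the 18 passed an adjusted p of 0.05. That was 1 of the 4 members tested in EC, where 0.0494% of 10113 genes passed (5 genes, all higher in CSD). The shares of all genes that passed in the other classes with a member tested were 0% in microglia, arterial SMC and fibroblasts, 0.0378% in pericytes and 0.0605% in choroid plexus cells, and 0.375% in astrocytes (0.268% higher in CSD), where no member could be tested. At an unadjusted p under 0.05 in edgeR, 3 of the 18 passed, all Tnfrsf12a and all higher in CSD. They were in EC, choroid plexus cells and arterial SMC. Over all genes, 786 of 10113 passed that limit in EC, 369 of 11575 in choroid plexus cells and 165 of 6259 in arterial SMC. DESeq2 called 1 of the 18, in EC, where it called 54 of all genes higher and 2 lower.

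Normalized to library composition (TMM), Tnfrsf12a in EC was at 137 and 153 CPM in CSD and at 53.6 and 50.5 CPM in HC. Both CSD libraries lay far above both HC libraries, and 18.1% of all genes tested in EC also had both CSD libraries higher. For Tnfrsf12a the means were 145 ± 11.6 CPM in CSD and 52.0 ± 2.21 CPM in HC (SD, n = 2 libraries each). This was a 2.78-fold higher level (2.5 to 3.1 at 1 SE; log2 1.48, SE 0.15, adjusted p = 0.0327 by edgeR's quasi-likelihood test). Capillary EC, the largest EC subtype with 3954 cells, gave 149 and 160 CPM against 63.0 and 50.7 CPM, 2.73-fold higher (log2 1.45, SE 0.18, adjusted p = 0.0141, edgeR), and 0.195% of 9243 genes passed there. Arterial EC held 75.2 and 79.4 CPM in CSD and 32.6 and 24.9 CPM in HC, from 17, 6, 4 and 3 UMIs. Venous EC, 94 cells that were led by Lcn2, Ackr1 and Ptgs2, held 188 and 190 CPM in CSD and 12.7 and 113 CPM in HC, from 10, 9, 1 and 3 UMIs, and in neither subtype was the gene tested. The samples do not separate a greater number of transcripts per cell from a change in the make-up of the EC recovered by the beads.

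**Figure D3:**
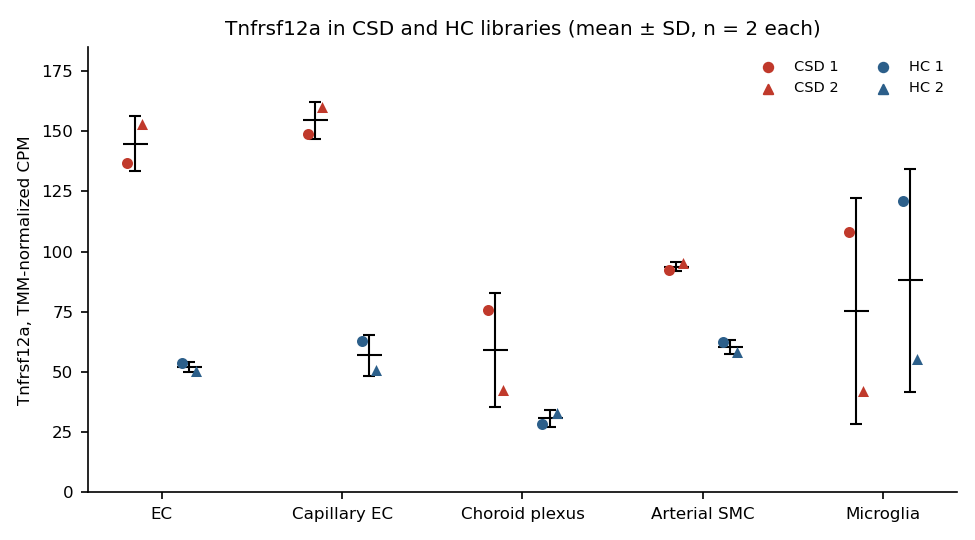
Tnfrsf12a (TMM-normalized CPM) in 5 groups of cells, 1 point per library with the mean and SD of the 2 libraries per condition. CSD libraries lie at 137 and 153 CPM in EC against 53.6 and 50.5 CPM in HC, while in microglia the conditions overlap and the libraries numbered 1 lie above those numbered 2.

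No other class passed for this gene. In choroid plexus cells it was at 75.9 and 42.5 CPM in CSD and 28.3 and 33.2 CPM in HC. The CSD libraries lay above, as for 13.9% of all genes tested there, but differed greatly from each other (log2 1.0, SE 0.22, adjusted p = 0.18, edgeR). The value moved with the CSD library kept, to 0.47 on the log2 scale without CSD 1 and to 1.31 without CSD 2 (adjusted p = 1.07e-06, edgeR), which held 90 choroid plexus cells. In such fits the lone library is assumed to vary like the other condition, and over all choroid plexus genes 23 were higher and 4 lower without CSD 2, against 7 and 0 with all libraries, so that call has little weight. Arterial SMC held 92.4 and 95.1 CPM in CSD and 62.5 and 58.3 CPM in HC without passing (log2 0.62, SE 0.25, adjusted p = 1.0, edgeR). These groups did not overlap, but 15.6% of all genes tested in arterial SMC likewise had both CSD libraries above both HC libraries. Microglia held 108 and 42.0 CPM in CSD and 121 and 55.4 CPM in HC, overlapping (log2 -0.23, SE 0.51, adjusted p = 1.0, edgeR). Fibroblasts, with too few counts to be tested, held 191 and 87.6 CPM in CSD and 18.0 and 13.3 CPM in HC from 13, 5, 1 and 1 UMIs, where 19.7% of the genes tested had both CSD libraries above both HC libraries. The CSD effect on Tnfrsf12a was 1.75 greater in EC than in microglia on the log2 scale (SE 0.45, unadjusted p = 0.0017, adjusted p = 0.90), 0.49 greater than in choroid plexus cells (SE 0.28, adjusted p = 1.0) and 0.85 greater than in arterial SMC (SE 0.30, adjusted p = 0.75) by edgeR. Of the 18 such tests of the members against these classes and pericytes, 0 passed an adjusted p of 0.05, where 0 to 0.0487% of all genes passed. At an unadjusted p under 0.05 there were 3, and the share of all genes at that limit was not measured. The effect in EC was therefore not shown to differ from that in other cells. With 1 library left out, the contrast with microglia ran from 1.07 (without CSD 2) to 2.53 (without CSD 1, adjusted p = 6.81e-07, edgeR), and it was 2.24 without HC 2 (adjusted p = 0.043, edgeR). These fits also take the lone library to vary like the others, and without CSD 1 the genes called in EC alone went from 5 to 332 higher and 162 lower, so both calls have little weight.

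The share of EC with the transcript was also higher in both CSD libraries. Tnfrsf12a UMIs were found in 18.6% and 18.8% of EC in CSD (95% exact intervals 16.4 to 21.0 and 16.6 to 21.2) and in 10.4% and 5.06% in HC (8.46 to 12.5 and 4.08 to 6.19). The difference in means was 11.002 percentage points, with no overlap and an exact two-sided permutation p of 0.33, the smallest that 2 against 2 libraries can give. EC of HC 2 were the shallowest, with a median of 863 UMIs against 1207, 1421 and 1469 in CSD 1, CSD 2 and HC 1. With every cell thinned to 500 UMIs the shares were 6.24% and 5.71% in CSD and 2.62% and 2.07% in HC, a difference of 3.63 points and still without overlap (exact p = 0.33). T cells had a median of 2021 UMIs against 1098.5 over all EC and held a UMI of the gene in 2 of 122 cells. That compares classes and not CSD with HC. Choroid plexus cells had shares of 52.9% and 47.8% in CSD against 38.5% and 27.3% in HC, but thinned shares of 4.39% and 1.11% against 1.90% and 2.0%, which overlapped. Thinned shares also overlapped in arterial EC (means of 4.68% in CSD and 4.07% in HC), venous EC (4.73% and 2.0%) and arterial SMC (2.65% and 3.92%). In fibroblasts the mean share was 29.2% in CSD against 5.71% in HC unthinned, but 0% against 5.71% thinned, with CSD below HC. The intervals cover counting error only.

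**Figure D4:**
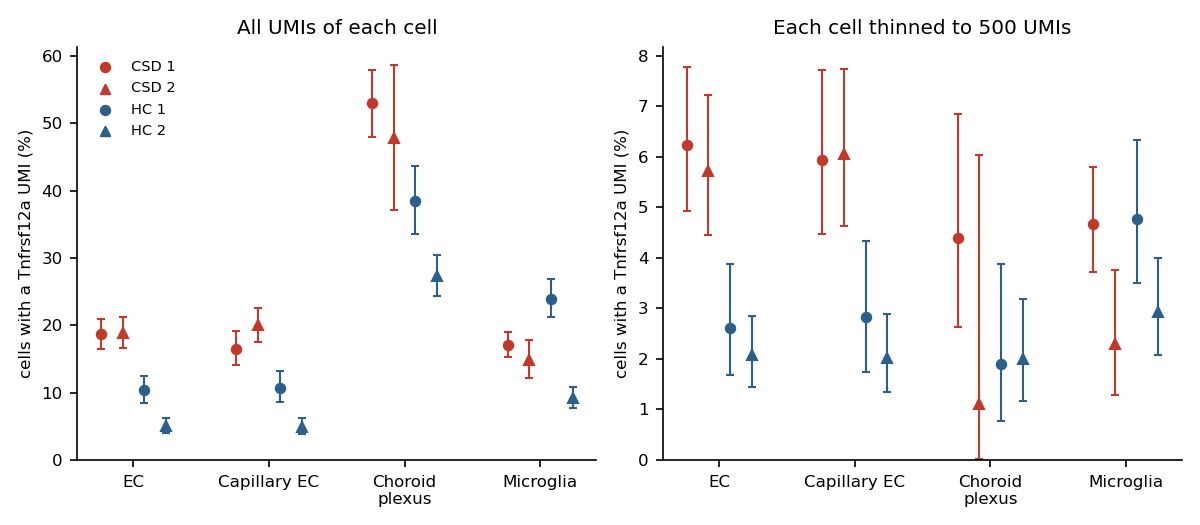
Share of cells with a Tnfrsf12a UMI (%) per library in 4 groups of cells, before and after thinning each cell to 500 UMIs, with 95% exact intervals for counting error. CSD libraries lie above HC libraries in EC and capillary EC in both panels, at 6.24% and 5.71% against 2.62% and 2.07% in EC after thinning, whereas choroid plexus cells overlap after thinning.

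Free RNA and markers of other cells were set beside the EC result. Free RNA carried Tnfrsf12a at 56.1 and 22.8 CPM in CSD and at 27.0 and 26.4 CPM in HC, overlapping. Of the marker lists of 14 other classes summed in EC, 10 overlapped between CSD and HC, microglia (93.4 to 189 CPM) and pericytes (543 to 1143 CPM) among them. Choroid plexus markers were lower in CSD (411 and 119 CPM, against 438 and 548 CPM), as were ependymal markers (15.9 and 10.7 CPM, against 19.8 and 57.5 CPM). The sum of neutrophil and monocyte markers was higher in CSD at 16.4 and 7.12 CPM against 4.68 and 4.14 CPM. In this list 8 of 10 markers were detected, with Ccr2 and Chil3 at 0. S100a9 was at 6.27 and 3.11 CPM in CSD and 0 in HC. Without S100a9 the rest of the list overlapped, with CSD 2 below both HC libraries. Oligodendrocyte markers were also higher in CSD (1445 and 1161 CPM, against 824 and 833 CPM), of which 97.0% was Mal, and the other 7 markers overlapped. The part of these cells or of free RNA in the Tnfrsf12a difference was not tested. Mitochondrial shares of EC overlapped, with medians of 7.13% and 8.64% in CSD and 7.89% and 6.14% in HC.

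The ligands did not pass between CSD and HC. Tnf in microglia was at 439 and 397 CPM in CSD and 504 and 398 CPM in HC, overlapping (log2 -0.11, SE 0.28, adjusted p = 1.0, edgeR). Tnfsf12 in EC was at 92.8 and 85.8 CPM in CSD and 76.5 and 97.4 CPM in HC, also overlapping (log2 0.04, SE 0.17, adjusted p = 0.98, edgeR). In microglia Tnfsf12 was at 38.1 and 49.7 CPM in CSD above 29.8 and 33.8 CPM in HC without passing (log2 0.46, SE 0.23, adjusted p = 1.0, edgeR). In microglia both CSD libraries lay above both HC libraries for 10.4% of all genes and below them for 12.1%. In fibroblasts Tnfsf12 was at 212 and 58.5 CPM in CSD under 224 and 311 CPM in HC (log2 -0.90, SE 0.72, adjusted p = 0.90, edgeR). There were 12 fibroblasts in CSD 2 and 11 in HC 1, and 16.8% of all genes tested in them had both CSD libraries below both HC libraries.

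The TNF receptors did not pass either. Tnfrsf1a in EC was at 45.4 and 45.1 CPM in CSD, under the 56.2 and 49.96 CPM of HC (log2 -0.23, SE 0.16, adjusted p = 0.79, edgeR), where 20.3% of all genes had both CSD libraries below both HC libraries. In microglia Tnfrsf1a was at 110 and 116 CPM in CSD and 101 and 96.7 CPM in HC (log2 0.20, SE 0.22, adjusted p = 1.0, edgeR), and Tnfrsf1b at 46.1 and 55.6 CPM in CSD and 57.0 and 60.4 CPM in HC (log2 -0.21, SE 0.22, adjusted p = 1.0, edgeR). Over all 17 tests that did not pass, log2 values ran from -0.90 to 1.0 and adjusted p from 0.18 to 1.0.

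Other genes of the pathway in EC were counted from 7 lists. These lists were chosen with earlier results of these data known, so their counts and medians are descriptions. Among textbook TNF-induced genes of endothelium, 1 of 11 tested rose, Cxcl1, a neutrophil-attracting chemokine, at 199 and 233 CPM in CSD and 73.9 and 51.5 CPM in HC (log2 1.78, SE 0.20, adjusted p = 0.0417, edgeR), with 5 at an unadjusted p under 0.05. The median of that list was 1.05 on the log2 scale against -0.01 over all genes tested, and 6 of its 11 genes had both CSD libraries above both HC libraries, as had 18.1% of all genes. The adhesion molecules Vcam1 (300 and 312 CPM in CSD, 138 and 77.5 CPM in HC, log2 1.51, adjusted p = 0.11) and Icam1 (204 and 287 CPM, against 137 and 73.4 CPM, log2 1.22, adjusted p = 0.28), named after their values were seen, did not pass in edgeR and did in DESeq2. In capillary EC a further chemokine gene of the list, Cxcl2, rose at 87.6 and 33.7 CPM in CSD against 6.83 and 4.06 CPM in HC (log2 3.42, SE 0.53, adjusted p = 0.0363, edgeR), while over all EC it overlapped, at 148 and 40.6 CPM against 54.1 and 16.3 CPM. In arterial EC Cxcl2 lay the other way without passing, at 151 and 0 CPM in CSD under 567 and 210 CPM in HC (log2 -1.86, SE 0.60, adjusted p = 0.64, edgeR). Over the TNF-induced list, capillary EC had a median of 0.51, with 4 of 8 genes higher and 1 lower in both CSD libraries, against 19.9% and 18.8% of all genes. Of the 8, 1 passed in edgeR and 0 in DESeq2, and 4 had an unadjusted p under 0.05, as had 780 of all 9243 genes tested. The TNF-induced list had a median of -0.34 in arterial EC, with 1 of 5 genes higher and 2 lower in both CSD libraries, against 16.9% and 15.9% of all genes. There 0 passed in edgeR or DESeq2 and 1 had an unadjusted p under 0.05, as had 128 of all 2304 genes tested. In the 94 venous EC the list's median was 2.27, with 6 of 7 genes higher in both CSD libraries, against 22.1% of all genes. In edgeR 0 passed and 6 had an unadjusted p under 0.05, and 4 passed in DESeq2. Of all 866 genes tested in venous EC, 91 had an unadjusted p under 0.05, and DESeq2 called 9 higher and 1 lower. Genes of this list that led venous EC against other EC were Ptgs2, Vcam1, Cxcl1, Icam1, Csf1 and Cxcl2.

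In the other lists no gene passed in EC. Over all 10113 genes tested there, 786 had an unadjusted p under 0.05 in edgeR and DESeq2 called 54 higher and 2 lower. Both CSD libraries lay above both HC libraries for 18.1% of the 10113 genes and below them for 20.3%. These values are the background for the counts of each list. Of the 11 NF-kappaB subunits and feedback genes tested, 0 passed in edgeR, 2 had an unadjusted p under 0.05 and 1 passed in DESeq2. That was Nfkbia, the inhibitor induced by NF-kappaB itself, at 2254 and 2195 CPM in CSD and 1284 and 1187 CPM in HC (log2 0.85, SE 0.15, adjusted p = 0.13, edgeR). The list's median was 0.44 and 7 of the 11 lay higher in both CSD libraries. Of the 27 adaptors and kinases, 0 passed in edgeR or DESeq2, 5 had an unadjusted p under 0.05, 9 lay higher and 2 lower in CSD, and the median was 0.12. For the 11 genes of shedding and mRNA control of Tnf these counts were 0, 2, 5 and 0 with a median of 0.17, and for the 9 other receptors of the superfamily 0, 4, 2 and 3 with a median of -0.03. The single other ligand tested, Tnfsf10 (TRAIL), named after its values were seen, was at 68.3 and 73.6 CPM in CSD under 88.5 and 99.9 CPM in HC and did not pass (log2 -0.41, adjusted p = 0.59, edgeR).

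The last list held immediate-early genes, transcription factors and phosphatases that dissociation itself can induce. Of the 17 tested in EC, 0 passed in edgeR, 10 had an unadjusted p under 0.05 and 3 (Dusp1, Fosb and Klf6) passed in DESeq2, while 11 lay higher in both CSD libraries, as did 18.1% of all genes, and the median was 0.56. Fos was at 2864 and 2913 CPM in CSD and 2083 and 2414 CPM in HC (log2 0.36, SE 0.16, adjusted p = 0.64, edgeR). Jun (2853 and 3802 CPM, against 2201 and 3019 CPM) and Egr1 (1557 and 1056 CPM, against 1260 and 840 CPM) overlapped. The part of this list in the Tnfrsf12a difference was not tested. In microglia the same list had a median of 0.05, with 0 of 17 passing in edgeR or DESeq2, 0 at an unadjusted p under 0.05 and none clear of overlap. The TNF-induced list had a median of -0.05 in microglia, with 0 of 13 passing in either tool and 1 at an unadjusted p under 0.05. Of all 9946 genes tested in microglia, 124 had an unadjusted p under 0.05.

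**Figure D5:**
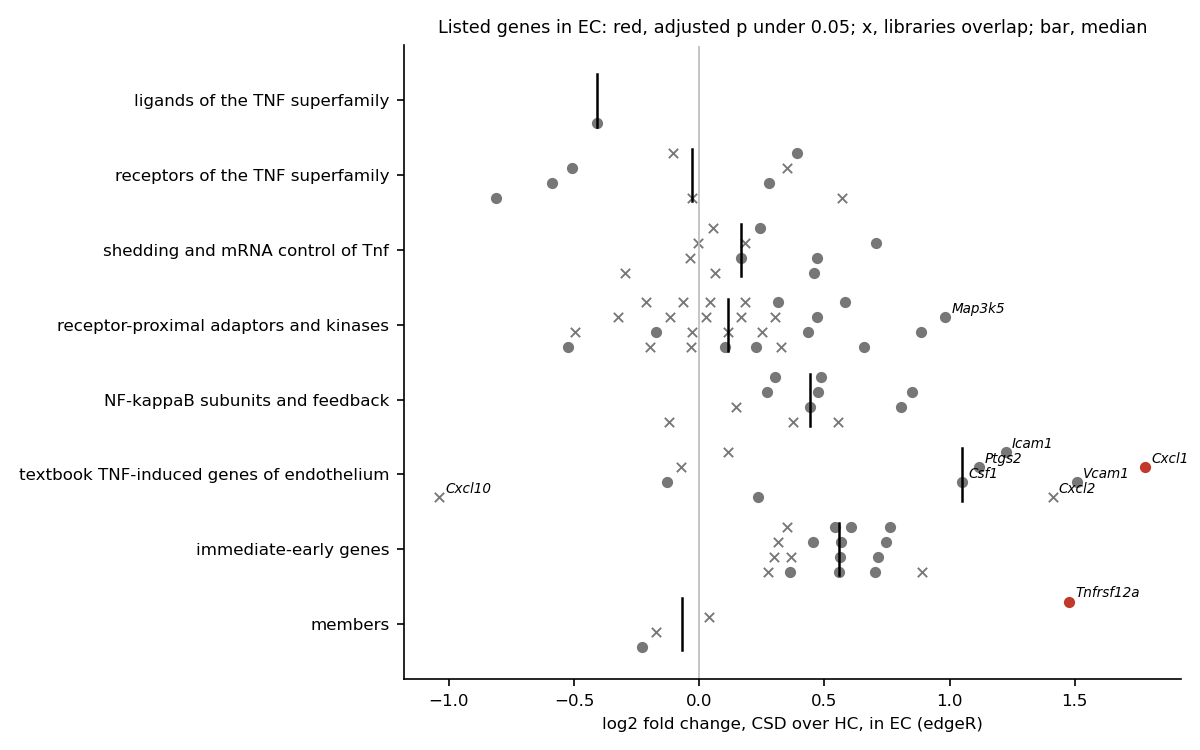
Log2 fold change of CSD over HC in EC for the tested genes of 7 pathway lists and for the members, with red for an adjusted p under 0.05, crosses where CSD and HC libraries overlap and a bar at each median. Tnfrsf12a (1.48) and Cxcl1 (1.78) are the red points, and the list medians run from -0.41 for other ligands to 1.05 for TNF-induced genes.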

How the data were processed

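Counts of UMIs per gene and barcode were deposited by the authors as unfiltered Cell Ranger matrices, 1 per library; the submitters' processing notes name Cell Ranger 4.0 and build GRCm38 (mm10), and the matrix headers carry 3.1.0. Barcodes with at least 500 UMIs, at least 250 genes and at most 25% mitochondrial UMIs were kept. Cells were gated by marker scores (best score at least 1.5 times the next, at least 3 markers detected), limits that were set after leading genes, cell numbers and pooled member levels had been seen but before any comparison of CSD with HC. Unnamed cells (7.28%) entered no class. Doublets were kept, since Scrublet marked 0.0981% of cells in CSD 1 and 0.431% in CSD 2 and so did not work there. Counts were summed per library and class and tested with edgeR 4.0.16 (filterByExpr, TMM, quasi-likelihood F test, Benjamini-Hochberg over all genes tested). Nothing in the labels says whether the pools were prepared separately, so p-values measure the spread between these pools. DESeq2 1.42.0, other normalizations, filters, gates and left-out libraries were alternatives, and the test of CSD against HC was checked on simulated counts in EC, microglia and choroid plexus cells. Clusters came from scanpy 1.11.5. The members and lists were chosen with earlier results of these data known. Other genes were named if they passed the test in a list without overlap of the libraries (at most 5 per list and class), were Fos, Jun, Egr1 or class markers, or were among the 3 genes most correlated with a member; for Tnfrsf1a these are not reported here. Further genes were named after their values were seen. Shares of cells were given exact Clopper-Pearson intervals. Gene models were those of GENCODE for GRCm38 and promoters those of RefSeq for GRCm38.p6, where 4 of the 5 members matched.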

Additional observations from a re-analysis of the deposited data

Results flagged for a closer look

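Of 14415 cells, 1049 could not be placed in a class and entered no comparison. In these cells Tnfrsf12a was at 77.1 and 79.8 CPM in CSD 1 and CSD 2 and at 22.7 and 29.9 CPM in HC 1 and HC 2, from 74, 44, 18 and 23 UMIs, and the lower CSD value lay above both HC values. The share of all genes in this order was not measured in the unnamed cells. In the tested classes and EC subtypes it ran from 10.4% (microglia) to 22.1% (venous EC). The unnamed cells were led by Hbb-bt (haemoglobin), H2-Eb1 and H2-Aa (MHC class II) and Rgs5 (a pericyte gene), and no test was made on them.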

How the results depend on the processing

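Tnfrsf12a ran from 1.42 to 1.57 on the log2 scale in EC under the 16 alternatives, and from 1.29 to 1.61 in capillary EC. It passed in both under every alternative that kept all libraries. These are not separate checks. In EC the complexity limit left the main counts unchanged (10113 genes tested, 786 with an unadjusted p under 0.05 by edgeR). Leaving out cells marked by Scrublet hardly moved them (10112 and 788). Fits with 1 library left out have little weight. The count of members that passed was 1, became 2, with choroid plexus cells added, without the filter on low counts (2) and with classes from clusters (2), and ran from 1 to 2 with 1 library left out. In choroid plexus cells Tnfrsf12a was 0.99 without the filter (adjusted p = 2.00e-04, edgeR) and 1.05 with clusters (adjusted p = 0.048, edgeR). Without the filter, 34 choroid plexus genes were called higher and 4 lower, against 7 and 0 in the main fit and 9 and 0 with clusters. The log2 value of Tnfrsf12a itself hardly moved from that of the main fit, so these calls add little weight. The count of listed genes over the 9 classes was 1, 7 with DESeq2, 19 without the filter and 5 to 41 with 1 library left out, highest without CSD 1 (41). Whether the numbers shared by CSD and HC libraries pair them is not known from the labels, and 2 pairs cannot show it (correlation of deviations 0.06 in EC, 0.41 in microglia and 0.06 in choroid plexus cells). A replicate block raised the microglial genes with an unadjusted p under 0.05 from 124 to 414 and gave 6 listed genes, 1 member and 1.48 for Tnfrsf12a in EC (adjusted p = 0.0217, edgeR). The contrasts of EC with other classes gave 0 calls, and 0 to 1 with 1 library left out. The difference in the share of EC with Tnfrsf12a was 3.63 points after thinning, against 11.002. Comparisons between classes numbered 95 to 108 of 180. Values near 0 changed sign: Tnfsf12 in EC with total UMIs only (-0.011), at least 1000 UMIs per cell (-0.057), clusters (-0.085), a stricter gate added after seeing the data (-0.036) and 1 library left out (-0.095 to 0.23), Tnf in microglia (-0.25 to 0.078) and Tnfrsf12a in microglia (-1.06 to 0.45) with 1 library left out. The cause of these changes was not tested. DESeq2 gave no adjusted p for Cxcl2 in capillary EC. With 2 libraries per condition, a member with too few counts in a class, such as Tnf or Tnfrsf12a in T cells, could not be tested there.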
